A study of Mus musculus with 2 samples.

Results

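The stearoyl-CoA desaturase genes Scd1 and Scd2, the fatty acid desaturase genes Fads1 and Fads3, and Acacb, the gene of acetyl-CoA carboxylase 2, were examined in brown adipose tissue. They are 5 of the 628 genes in the deposited table, matched by Entrez gene identifier. The members were chosen by their FPKM values in the same 2 libraries, 3bKO against fl/fl, as genes of fatty acid synthesis that the table lists, so every difference below is a description and no test was made. The table comes from 1 library of a fl/fl control sample and 1 library of a 3bKO sample, both labelled C57BL/6 and both given a 60% high-fat diet for 20 weeks. The labels do not spell out the name 3bKO and give no Cre line, sex, age or number of animals in a sample. Which library is which rests on the column headings alone, and the name of the deposited table pairs Myf5 with D3b without tying them to the headings. The same name marks the table as filtered for differential expression, by thresholds that are not given. The table lists only genes whose log2 ratio differs from 0 by 0.50 or more, so a gene missing from it has no value here and cannot be called unchanged. Each genotype has a single library, so no replicate error exists and each ratio compares 2 libraries. The sources used here do not give the sequencing depth, so no counting interval was made. Of 19 markers of brown adipocytes, 6 are listed, and Ucp1, the marker that defines the cell, is not, so the tissue label could be checked only in part.

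Fatty acids made within a cell start from acetyl-CoA, which acetyl-CoA carboxylases turn into malonyl-CoA. The form encoded by Acacb sits at the outer mitochondrial membrane, where its malonyl-CoA restrains the entry of fatty acids into mitochondria through carnitine palmitoyltransferase. Stearoyl-CoA desaturases put the first double bond into saturated fatty acids and so make the monounsaturated fatty acids of stored triglyceride and of membranes. The enzyme of Fads1 works on polyunsaturated fatty acids, in the step that yields arachidonic acid, and that of Fads3 is known for desaturating sphingoid bases. Brown adipocytes both store and burn fatty acids, and both arms of this chemistry run in them.

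Scd1 (Entrez gene 20249) was the most abundant of the 628 listed genes in both libraries. Its level was 4693 FPKM in fl/fl against 6722 FPKM in 3bKO, where FPKM counts fragments per length of transcript and per size of library. The 3bKO value was 1.43-fold the fl/fl value, a log2 ratio of 0.52. The level of Scd1 was 3.17-fold that of the next highest gene, Gpx3, in fl/fl, and 5.59-fold that of the next highest gene, B2m, in 3bKO. The difference of 2029 FPKM was the largest in the table in absolute terms, ahead of Gpx3 at -562 FPKM and the muscle gene Tnnt3 at 428 FPKM. As a ratio it was among the smallest, since only 17 listed genes had a log2 ratio nearer to 0. Scd1 made up 21.7% of the summed FPKM of all listed genes in fl/fl and 23.0% in 3bKO.

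**Figure D1:**
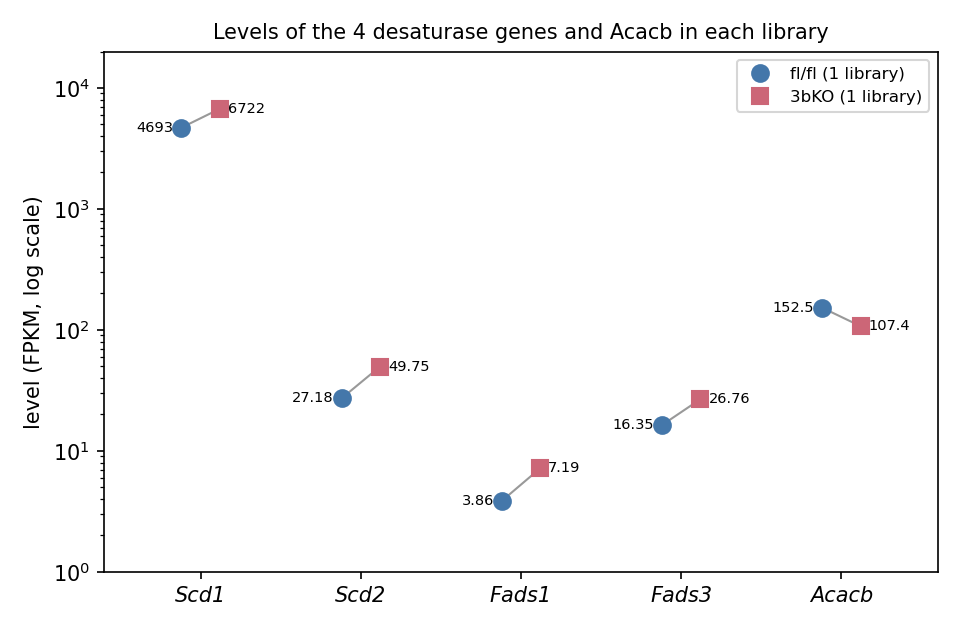
Level in FPKM (log scale) of each gene in the fl/fl library (circles) and the 3bKO library (squares), 1 library each, with no error bars since there are no replicates. Values are as deposited: the 4 desaturase genes are higher in 3bKO and Acacb is lower, but the 4 desaturase genes turn to lower when ratios are centred on the median of the listed genes.

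Scd2 (Entrez gene 20250), the form best known from brain, was at 27.2 FPKM in fl/fl against 49.8 FPKM in 3bKO, a 1.83-fold value with a log2 ratio of 0.87. Scd1 exceeded it 173-fold in fl/fl and 135-fold in 3bKO. The Scd2-to-Scd1 ratio, which does not depend on how the libraries are scaled to each other, was 1.28-fold higher in 3bKO. The 2 genes are near copies: their coding sequences are identical at 965 of 1068 aligned bases (90.4%) in GENCODE transcripts of NCBIM37. Their longest exact match, 147 bases, lies within the coding sequence of both, and it is shown because a read from within it fits either gene. Each line gives the mRNA strand, with the shared bases in capitals and 12 bases on either side in lower case.
Scd2, transcript bases 1232 to 1402: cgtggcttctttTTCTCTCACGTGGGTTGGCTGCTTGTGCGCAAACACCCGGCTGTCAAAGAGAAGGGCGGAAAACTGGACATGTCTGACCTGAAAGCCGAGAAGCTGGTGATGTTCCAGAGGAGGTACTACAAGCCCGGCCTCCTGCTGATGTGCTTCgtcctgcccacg
Scd1, transcript bases 811 to 981: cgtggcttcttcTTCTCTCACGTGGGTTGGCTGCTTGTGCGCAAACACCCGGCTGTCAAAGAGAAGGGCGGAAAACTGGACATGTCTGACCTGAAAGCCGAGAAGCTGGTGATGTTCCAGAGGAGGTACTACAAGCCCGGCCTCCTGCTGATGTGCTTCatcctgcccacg
Over the whole Scd2 transcript, 145 of 5404 windows of 50 bases (2.68%) also occur in the Scd1 transcript, and at 100 bases 48 of 5354 (0.897%) do. The Scd2 level equalled 0.579% of the Scd1 level in fl/fl and 0.740% in 3bKO, and its difference of 22.6 FPKM equalled 1.11% of the Scd1 difference. Scd3 and Scd4, which are not listed, also share exact matches with Scd1, of up to 185 and 116 bases. The sources used here do not give the read length. The part of reads shared with Scd1 in the Scd2 value was not tested, and the Scd2 ratio is uncertain for that reason.

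Fads1 (Entrez gene 76267) was the lowest of the 5 genes, at 3.86 FPKM in fl/fl against 7.19 FPKM in 3bKO. Its 1.86-fold value, a log2 ratio of 0.90, was the largest ratio among them. Fads3 (Entrez gene 60527) was at 16.4 FPKM in fl/fl against 26.8 FPKM in 3bKO, a 1.64-fold value with a log2 ratio of 0.71. Fads3 therefore stood above Fads1 in both libraries, 4.24-fold in fl/fl and 3.72-fold in 3bKO. Fads2, which encodes the enzyme that acts before that of Fads1 on polyunsaturated fatty acids, is not listed. These genes are less alike than the Scd pair, with 65.7% of aligned coding bases identical between Fads1 and Fads3 and a longest exact match of 17 bases. Fads3 and Fads2 share a match of 54 bases, and 5 of 1765 windows of 50 bases.

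Acacb (Entrez gene 100705) was the only one of the 5 genes with a lower value in 3bKO, at 152.5 FPKM in fl/fl against 107 FPKM in 3bKO. The 3bKO value was 0.704 of the fl/fl value, a log2 ratio of -0.51. In fl/fl it held place 23 by level among the listed genes and in 3bKO place 47. Only 4 listed genes had a log2 ratio nearer to 0. Its paralog Acaca, the acetyl-CoA carboxylase of the cytosol that feeds fatty acid synthesis, is not listed. The coding sequences of Acacb and Acaca share 71.6% of aligned bases, and none of the 50-base windows of Acacb occurs in Acaca (0 of 8739). Set against Acacb within each library, Scd1 was 30.8-fold higher in fl/fl and 62.6-fold higher in 3bKO, a 2.03-fold difference that no scaling of the libraries alters. The same difference was 2.32-fold for Fads3 over Acacb, 2.60-fold for Scd2 and 2.65-fold for Fads1.

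None of the 5 genes differed by more than 2-fold between the libraries (0 higher and 0 lower), while 47.1% of all listed genes lay past 2-fold on the higher side and 4.46% on the lower side. Past 1.5-fold, 3 genes were higher (Scd2, Fads1 and Fads3) and 0 were lower, against 74.5% and 13.9% of the listed genes. At any listed ratio, 4 were higher and 1 was lower, against 81.5% and 18.5%. The table is made of genes past a minimum difference, and the members come from it, so nothing is read from these shares. The smallest absolute log2 ratio in the table is 0.50, and those of Acacb and Scd1 lie just inside this limit. Genes just outside it have no value.

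**Figure D2:**
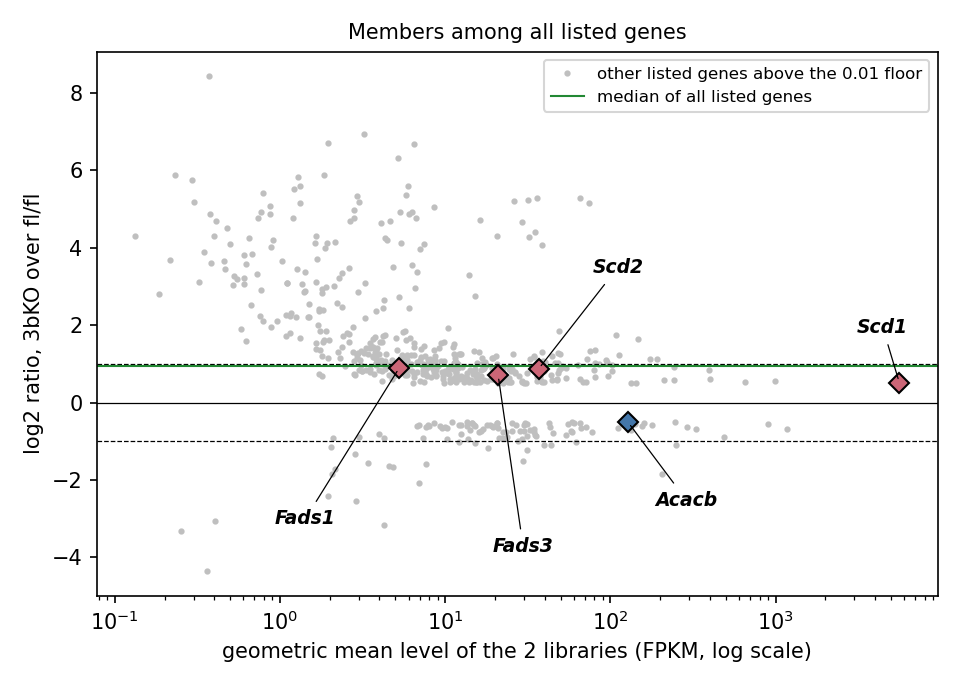
Log2 ratio of 3bKO over fl/fl (vertical axis) against the geometric mean level of the 2 libraries in FPKM (horizontal axis, log scale) for listed genes above the 0.01 FPKM floor. Diamonds mark the 5 genes, dashed lines mark 2-fold either way, and the green line marks the median log2 ratio of all listed genes, 0.96, below which all 5 genes lie: the 4 desaturase genes, above 0 as deposited, fall below 0 when centred on it.

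The direction for the 4 desaturase genes depended on how the libraries were put on 1 scale, and the table alone cannot settle that scale. The median log2 ratio of all listed genes was 0.96. With ratios centred on this median, the log2 ratios became -0.44 for Scd1, -0.09 for Scd2, -0.06 for Fads1, -0.25 for Fads3 and -1.47 for Acacb. This centring assumes that the listed genes have no common direction, which a table of selected genes need not meet. With both libraries scaled to the same summed FPKM over listed genes off a skeletal muscle list, a shift of 0.28, they were 0.24 for Scd1, 0.59 for Scd2, 0.62 for Fads1, 0.43 for Fads3 and -0.79 for Acacb. The list does not hold every muscle gene: Tcap, at 3.16 FPKM in fl/fl against 83.7 FPKM in 3bKO, stays in that sum. The part of such genes in the shift was not tested. Each scaling lowers all ratios by 1 shift, so Acacb, already below 0, could only move further down, and the order of the 5 ratios could not change.

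**Figure D3:**
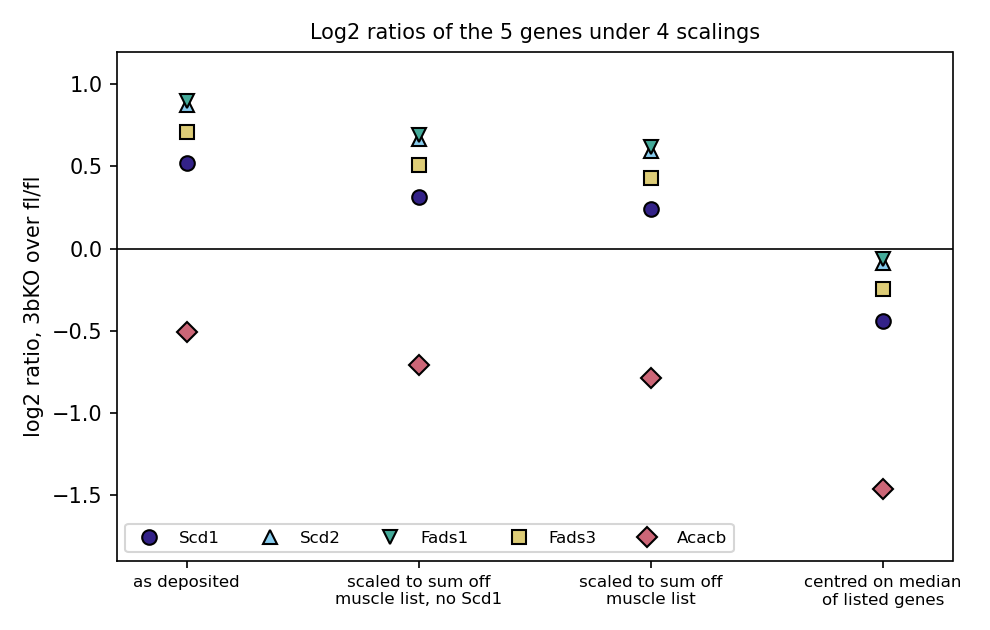
Log2 ratio of 3bKO over fl/fl for each of the 5 genes (1 marker shape a gene) as deposited and under 3 scalings of the 2 libraries, with 0 as a solid line. Acacb lies below 0 throughout, and the 4 desaturase genes lie above 0 except when centred on the median of the listed genes, where they lie between -0.44 and -0.06.

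Of 123 genes on 8 lists of fatty acid metabolism, 10 are listed, 5 of them members. The other 5 comprised 1 gene that was higher in 3bKO and 4 that were lower, beside 81.5% higher and 18.5% lower over all listed genes. Their median log2 ratio was -0.67, beside 0.96 over all listed genes. Of the lower ones, Gk and Slc27a2 are also on the list of brown adipocyte markers. The higher one was Mid1ip1, whose protein promotes the assembly of acetyl-CoA carboxylase into its active polymer, at 12.1 FPKM in fl/fl against 20.1 FPKM in 3bKO. When centred on the table median, Mid1ip1 too falls below 0. Among the lower ones, Mlx encodes the partner with which the lipogenic factor ChREBP binds DNA, and it was at 21.4 FPKM in fl/fl against 13.4 FPKM in 3bKO. Gk encodes glycerol kinase, which makes the glycerol backbone of triglyceride available again, and its level was 140.8 FPKM in fl/fl against 88.7 FPKM in 3bKO. Slc27a2 and Acsl5, whose products activate fatty acids to acyl-CoA, were at 87.9 and 88.3 FPKM in fl/fl and at 43.1 and 56.9 FPKM in 3bKO. Slc27a2, at a log2 ratio of -1.03, was the only gene of these lists past 2-fold. Over all listed genes, 4.46% were lower by more than 2-fold.

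Whole steps of the pathway are missing from the table. The lists of elongation genes (0 of 13 listed), of cholesterol synthesis genes under SREBP (0 of 18) and of malonyl-CoA removal and fatty acid oxidation (0 of 20) gave no value. Of 14 lipogenic regulators only Mlx is listed, and of 13 genes of fatty acid synthesis only Acacb and Mid1ip1. Of 14 genes of desaturation the 4 listed are the members. The table says nothing on whether these other genes differed.

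Markers of other cell types differed between the same 2 libraries, in a table where 81.5% of all genes were higher in 3bKO and the median log2 ratio was 0.96. In bulk tissue, fewer cells of a type and less RNA per cell cannot be told apart. All 38 genes of a skeletal muscle list were listed and higher in 3bKO, and 2 of them, Myl3 and Tnnt1, were at the 0.01 floor in fl/fl. Their summed level was 279 FPKM in fl/fl against 3278 FPKM in 3bKO, a sum over all 38 genes. The marker lists were chosen with earlier results of these data known, so a full count such as this is a description only. Skeletal muscle also expresses Acacb, which was at 152.5 FPKM in fl/fl against 107 FPKM in 3bKO, and the part of muscle in either value was not tested. Of 28 macrophage genes 21 were listed, all higher, summing to 526 FPKM and 1145 FPKM, with log2 ratios from 0.85 to 2.18. Of 20 fibroblast and matrix genes 18 were listed, all higher, summing to 898 FPKM and 1477 FPKM, with log2 ratios from 0.54 to 1.66. The ratios of Scd2, Fads1 and Fads3 lie within the matrix range, and those of Scd2 and Fads1 within the macrophage range too. The median of all listed genes, 0.96, also lies within both ranges, so nothing is read from this overlap. The 6 listed brown adipocyte genes were all lower, summing to 1481 FPKM and 972 FPKM, with a median log2 ratio of -0.78. Gk and Slc27a2 are among them and are also lower genes of the pathway lists above, so these are not separate observations. Acacb was at -0.51. Only 4 listed genes had a log2 ratio nearer to 0 than Acacb, so nothing is read from its place beside the brown adipocyte genes. Of 17 white adipocyte genes 5 were listed, with a median log2 ratio of 1.33. The lower one, Cfd (adipsin), was at 387 FPKM in fl/fl against 108 FPKM in 3bKO, and the 4 higher ones, Lep, Nnat, Hoxc8 and Mest, summed to 108 FPKM in fl/fl against 270.5 FPKM in 3bKO. Of 11 blood genes 3 were listed, with log2 ratios of -0.69 for Hba-a2, -1.16 for Alas2 and 0.85 for Ptprc. The beta-globin gene Hbb-b1, not on that list, was at 367 FPKM in fl/fl against 171 FPKM in 3bKO, a log2 ratio of -1.10. The sebaceous gland and skin list had 1 of 10 listed (Krt79, at 0.96), the endothelium list 1 of 8 (Vwf, at 0.60) and the Schwann cell and nerve list 0 of 10. The signs for the desaturases and for the macrophage and matrix medians are those as deposited: centred on the table median, the 4 desaturases, the matrix median, the lower members of the macrophage list, Ptprc, Krt79 and Vwf fall below 0. The part of these cell types in the values of the 5 genes was not tested.

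**Figure D4:**
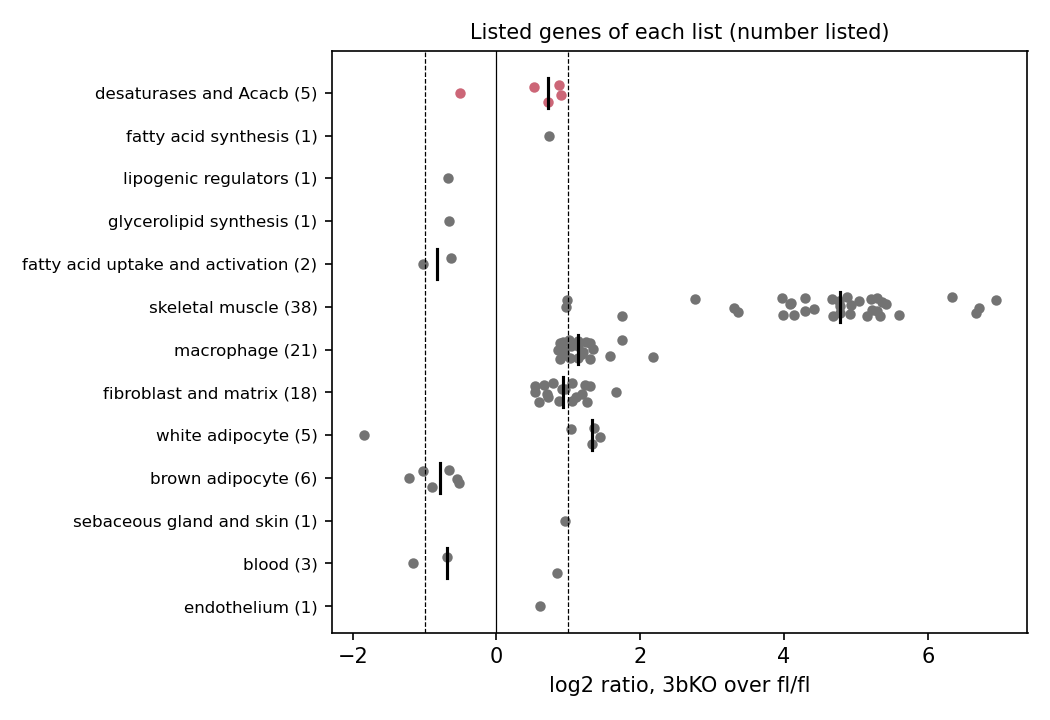
Log2 ratio of 3bKO over fl/fl for each listed gene above the floor, by list, with the number listed in parentheses, the 5 genes in colour and a bar at the median where a list has more than 1 gene. Values are as deposited: 4 of the 5 genes lie between 0.52 and 0.90, where centring on the table median of 0.96 would put them below 0, and Acacb lies at -0.51.

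The genes with the most similar pair of values, by distance in the plane of log2 FPKM of the 2 libraries, were Gadd45g and C1s1 for Scd2 (distances of 0.03 and 0.07), St8sia4 and Ptprc for Fads1 (0.03 and 0.06), Fstl1 and Marcks for Fads3 (0.04 and 0.09), and Tgoln1 and Entpd4 for Acacb (0.06 and 0.16). Scd1 had no close neighbour, with Gpx3 nearest at 3.32 and then B2m at 3.53. With 2 libraries such likeness rests on 2 values per gene and is a description only.

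The 4 desaturase genes lie on chromosome 19 of GRCm38.p6, the assembly that mm10 names, in 2 clusters of related genes. Fads3 runs from 10040855 to 10060113 and Fads1 from 10182877 to 10196874, with 122.8 kb and Fads2 between them. Scd2 runs from 44293676 to 44306864 and Scd1 from 44394450 to 44407709, with 87.6 kb and Scd4 between them. Neither Fads2 nor Scd4 is listed. Within 200 kb of Scd1 or of Scd2, the other of the pair was the only one of 8 protein-coding genes listed. Within 200 kb of Fads1 and of Fads3, the only further listed gene was Dagla, a diacylglycerol lipase, at 12.4 FPKM in fl/fl against 8.02 FPKM in 3bKO. Dagla was thus lower in 3bKO, while both Fads genes near it were higher as deposited and lower when centred on the table median. Over chromosome 19 as a whole, 24 genes were listed, 18 higher and 6 lower, beside 81.5% higher over the whole table, and nothing particular to the chromosome is read from this. Acacb lies on chromosome 5 from 114146321 to 114250761, with 0 of 12 protein-coding genes within 200 kb listed. A microRNA gene lies within Scd2 and within Fads1, and the predicted gene Gm29917 overlaps Fads3; none of them is listed.

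Promoter sequences were at hand for Fads3 and Acacb, whose ratios had opposite signs as deposited but were both negative when centred on the table median. They are shown from RefSeq in GRCm38.p6, 250 bases before to 50 after an annotated start, on the plus strand. Capitals mark matches on either strand to CCAAT, to GGGCGG and to TATAAA, motifs that do not overlap in these windows.
Fads3, chr19:10041298-10041597: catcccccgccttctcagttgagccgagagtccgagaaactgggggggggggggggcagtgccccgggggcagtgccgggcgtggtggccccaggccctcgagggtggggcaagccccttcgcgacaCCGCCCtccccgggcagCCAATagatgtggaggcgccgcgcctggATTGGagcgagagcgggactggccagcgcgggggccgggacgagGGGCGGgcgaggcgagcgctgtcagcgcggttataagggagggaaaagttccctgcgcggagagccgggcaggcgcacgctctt
Acacb, chr5:114165268-114165567: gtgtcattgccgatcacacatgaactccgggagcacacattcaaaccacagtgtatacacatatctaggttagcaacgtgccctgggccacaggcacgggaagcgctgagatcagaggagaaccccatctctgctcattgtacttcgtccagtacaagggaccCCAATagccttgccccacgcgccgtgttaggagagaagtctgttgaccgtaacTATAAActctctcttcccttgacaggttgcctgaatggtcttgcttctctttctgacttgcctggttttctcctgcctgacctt
The Fads3 window holds 2 matches to CCAAT, where 37.4% of 32851 such windows hold 1 or more. It also holds 2 to the GC box GGGCGG, where 35.7% hold 1 or more. The Acacb window holds 1 match to CCAAT and 1 to TATAAA, where 13.6% hold 1 or more. The sterol regulatory element TCACNCCAC, found in 1.24% of windows, and the E-box CACGTG, found in 7.15%, had 0 matches in both. The Fads3 window is 73.0% G and C with 31 CpG sites, and that of Acacb 51.7% with 10, where the medians over all windows are 52.7% and 7. The annotated start used for Acacb lies 19.2 kb inside the gene, and that of Fads3 lies 0.693 kb inside, so neither window is at the upstream end of its gene. A match is a run of letters and not a shown site.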

How the data were processed

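RNA was extracted from frozen brown adipose tissue and sequenced from poly(A)-selected mRNA on an Illumina instrument, per the labels. The deposited values are FPKM calculated by the authors, rounded to 2 decimals with a lowest value of 0.01. The submitters' processing notes name RSEM and mm10, with no version. The name of the deposited table marks its 628 genes as filtered for differential expression, but the sources used here do not give the thresholds of that filter. RSEM divides fragments that fit several transcripts among them by estimation. Identifiers were paired with symbols in the RefSeq annotation of GRCm38.p6 (627 of 628 matched). Ratios set 3bKO over fl/fl, with no pseudocount. No test was possible with 1 library of each genotype. Fold thresholds of 1.5, 3 and 4, pseudocounts of 0.1 and 1, minimum levels of 1 and 10 FPKM and 3 scalings were tried. The counting of ratios was checked on simulated data. Genes named are the 5 members, listed genes of 8 pathway lists, and the 2 genes nearest each member; others were chosen after their values were seen. The members, 8 pathway lists and 9 marker lists were chosen with earlier results of these data known. Paralogs were aligned globally with Biopython 1.88 from the transcript with the longest coding sequence in GENCODE vM1 (NCBIM37). Python 3.11.15, NumPy 2.4.6, pandas 2.3.3 and Matplotlib 3.10.9 were used.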

Additional observations from a re-analysis of the deposited data

How the results depend on the processing

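Against 0 of the 5 genes past 2-fold, a threshold of 1.5-fold gave 3 higher genes. On the pathway lists, 1.5-fold gave 4 higher and 4 lower genes in place of 0 and 1, and 3-fold and 4-fold gave 0 lower. Over all listed genes, 74.5% were higher and 13.9% lower past 1.5-fold. The changes in the counts follow from the threshold. Centred on the median log2 ratio of the listed genes, the log2 ratios were -0.44 for Scd1, -0.087 for Scd2, -0.062 for Fads1 and -0.25 for Fads3, all of the opposite sign to the deposited values, and -1.47 for Acacb, so that 1 of the 5 genes and 5 genes of the pathway lists were lower by more than 2-fold. These follow from the shift of 0.96 that the centring applies. In the other 53 cases run, a log2 ratio kept its sign with its fold (the unlogged ratio) within 1.5 times the deposited one, and a count stayed within 1.5 times. Many of these outcomes were fixed in advance, so the 53 cases are no measure of robustness. With 0 of the 5 genes past 2-fold, a higher threshold or a minimum level could only give 0 again. Leaving Scd1 out of the scaling sum, an alternative chosen after seeing the data, gave a shift of 0.20 in place of 0.28. Neither shift is large enough to change a fold by more than 1.5 times. At 10 FPKM in both libraries 4 of the 5 genes were kept, all but Fads1. No paired analysis was possible because each genotype has 1 library. Without replicates, depth or the genes that were filtered away, the spread of a ratio among animals cannot be had from any setting.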

Other observations

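Genes of acyl-CoA synthetases, the enzymes that join fatty acids or acetate to coenzyme A, were looked up by symbol after their values were seen. Of 18 protein-coding genes annotated in the Acsl, Acsm, Acss and related families, 4 are listed, and all 4 were lower in 3bKO, beside 18.5% of all listed genes. Acss1, the mitochondrial acetyl-CoA synthetase, was at 83.1 FPKM in fl/fl against 53.1 FPKM in 3bKO. Acss3 was at 30.4 FPKM and 18.0 FPKM, and Acsm3, a medium-chain synthetase of mitochondria, at 71.5 FPKM and 40.4 FPKM. With Acsl5 their log2 ratios ran from -0.83 to -0.63. The genes were picked with their values known, and no test was made.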
